A study of Homo sapiens with 12 samples.

Results

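MicroRNAs of the miR-146a, miR-146b, miR-155, miR-132, miR-212, miR-9 and miR-147b families, which are known to be induced by lipopolysaccharide (LPS) in monocytes, were followed in the small RNA sequencing data of Mono Mac 6 (MM6) cells. Every mature arm of these 7 families that was listed both without and with LPS was taken, whatever its value, which gave 9 arms of the 233 mature miRNAs listed in both tables. These were miR-146a-5p, miR-146a-3p, miR-146b-5p, miR-146b-3p, miR-155-5p, miR-132-3p, miR-9-5p, miR-9-3p and miR-147b. The arms of miR-212, miR-132-5p and miR-155-3p were not analysed here.

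MM6 is a human monocytic cell line. Wild-type cells were compared with 5-LOΔ cells, in which ALOX5, the gene for 5-lipoxygenase (5-LO), had been knocked out by CRISPR. All groups share a 72 h differentiation, for which the cells received calcitriol at 50 nM together with TGF-β at 1 ng/mL, and the LPS groups of each genotype were treated with LPS at 1 µg/mL for 6 h. There were 3 libraries of wild-type cells, 3 of 5-LOΔ cells, 3 of wild-type cells with LPS and 3 of 5-LOΔ cells with LPS, 12 in all. The knockout cells came from clones, and the labels do not name the clone behind a library, so an effect of the knockout and a property of a clone cannot be told apart. The sequencing is described as representative of independent experiments, but the labels do not tie the libraries to them.

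LPS is a cell wall component of Gram-negative bacteria that is sensed by Toll-like receptor 4 and activates the transcription factor NF-κB. miR-146a is a classical NF-κB target that acts back on the pathway by repressing the adaptors TRAF6 and IRAK1, and miR-146b carries the same seed. miR-155 is made from the BIC transcript and is known as a promoter of inflammatory responses in macrophages. miR-132, miR-9 and miR-147b have each been described as induced through Toll-like receptors. The product of a miRNA hairpin is a duplex of a 5p and a 3p arm, of which one is usually kept as the guide strand (the major arm here is the more abundant one).

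The mature sequences are printed because the seed, the bases 2 to 8 that pair with targets, separates these miRNAs into groups. They were taken from RefSeq (the table of GRCh38.p14), run from 5′ to 3′ and carry the seed in capitals.
miR-146a-5p: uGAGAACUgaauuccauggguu
miR-146b-5p: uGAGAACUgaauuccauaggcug
miR-146a-3p: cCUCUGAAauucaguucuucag
miR-146b-3p: gCCCUGUGgacucaguucuggu
miR-155-5p: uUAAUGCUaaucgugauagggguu
miR-132-3p: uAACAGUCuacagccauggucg
miR-9-5p: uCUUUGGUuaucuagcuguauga
miR-9-3p: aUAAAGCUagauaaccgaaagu
miR-147b: gUGUGCGGaaaugcuucugcu

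miR-146a-5p and miR-146b-5p shared a seed, and over their 22 common positions, counted from the 5′ end with miR-146a-5p as the reference, they differed by G18A and U21C. No other mature miRNA listed carried any of these seeds, among 263 of 314 listed names with a RefSeq sequence. The 3p arms of the same hairpins have different seeds.

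The genes lie apart in the genome (GRCh37, own exact match). The miR-146a-5p sequence lies on the forward strand at chr5:159912379-159912400, in an exon of both overlapping transcripts of the lncRNA MIR3142HG. The miR-146b-5p sequence lies on the forward strand at chr10:104196277-104196299 and overlapped no other annotated gene. miR-155-5p was found at chr21:26946295-26946318, on the forward strand, in an exon of the lncRNA MIR155HG. The hairpin of miR-132 lies on the reverse strand at chr17:1953202-1953302 outside other genes, and that of miR-147b lies on the forward strand at chr15:45725248-45725327, where 2 of 3 transcripts of C15orf48 have an exon. miR-9-5p matched 3 loci, in MIR9-1HG (chr1:156390184-156390206), LINC00461 (chr5:87962720-87962742) and MIR9-3HG (chr15:89911263-89911285), so its count cannot be assigned to one gene. The miR-146b-3p sequence had a second exact match at chr9:96727242-96727263, in no annotated gene, and reads of that copy could not be told apart from those of the MIR146B locus at chr10:104196314-104196335.

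Promoters, taken from RefSeq (GRCh38.p14) as the 300 bases around a transcript start, were searched on both strands for the NF-κB consensus motif. The window of MIR3142HG, the host of miR-146a, at chr5:160468001-160468300 held 1 match, GGGACTTTCC, whose first base lies at position -120 from the start. The windows of MIR155HG, COXFA4L3 (the current symbol of C15orf48), MIR9-1HG, MIR9-2HG and MIR9-3HG held none. For miR-146b and miR-132 no window was available, so the search does not cover them, and a tie between the motif and the LPS effects was not tested. A match stood in 2075 of 35116 such windows, or 5.91%.

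What was measured is the normalized count of each noncoding RNA, deposited as 1 mean per group, with no value of a single library. Summed over mature miRNAs the means came to 93209 to 113363 per group, which was 0.942% to 1.10% of all noncoding RNA without precursor entries. Whole reads of the 3 libraries could be recovered for low means from 3 size factors per group, and these libraries are named here by their size factor (largest, middle or smallest), which spanned 0.883 to 1.25 in wild-type cells, 0.725 to 1.34 in 5-LOΔ cells, 0.665 to 1.72 in wild-type cells with LPS and 0.812 to 1.30 in 5-LOΔ cells with LPS. Means allow no test between groups. Instead, each value has a 95% interval for read counting only and a wider one that adds a spread between libraries, which was a coefficient of variation of 16.5% in wild-type cells, 39.2% in 5-LOΔ cells, 27.7% in wild-type cells with LPS and 24.2% in 5-LOΔ cells with LPS. This spread was estimated on other miRNAs with means from 3 to 30 whose reads were recovered in 1 way, and assumed to hold at higher levels. Of these there were 62 in wild-type cells, 54 in 5-LOΔ cells, 29 in wild-type cells with LPS and 45 in 5-LOΔ cells with LPS. In wild-type cells with LPS no mean from 10 to 20 was recovered in 1 way, so none of those entered. The myeloid markers miR-223-3p, miR-142-3p and miR-142-5p were all listed and summed to 389 to 564 normalized counts per group. Of 9 markers of other cells only the epithelial miR-200c-3p was listed, at 1.00 to 1.19 in both wild-type groups and at 0 in both 5-LOΔ groups.

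In cells without LPS, miR-155-5p and miR-146b-5p were the abundant members and the others were low. The mean of miR-155-5p was 1358 normalized counts in wild-type cells (counting interval 1317 to 1399), 1998 in 5-LOΔ cells, 1360 in wild-type cells with LPS and 1783 in 5-LOΔ cells with LPS, and it ranked 11 or 12 among mature miRNAs in every group. The mean of miR-146b-5p was 1268, 2131, 3704 and 7241 normalized counts in the same order of groups. It moved from rank 14 in wild-type cells to rank 6 with LPS, and from rank 10 in 5-LOΔ cells to rank 5 with LPS.

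miR-146a-5p was found at 66.9 normalized counts in wild-type cells (58.3 to 76.6), 100.1 in 5-LOΔ cells (89.1 to 112.5), 468 in wild-type cells with LPS (444 to 493) and 555 in 5-LOΔ cells with LPS (528 to 583). Both LPS groups lay far above both groups without LPS, and the rank rose from 60 and 55 to 20 and 21. Its 3p arm stayed low, at 1.87 in wild-type cells, 0.748 in 5-LOΔ cells, 20.3 in wild-type cells with LPS and 11.3 in 5-LOΔ cells with LPS. miR-146b-3p stood at 8.0 in wild-type cells, 8.22 in 5-LOΔ cells, 154 in wild-type cells with LPS and 243 in 5-LOΔ cells with LPS.

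**Figure D1:**
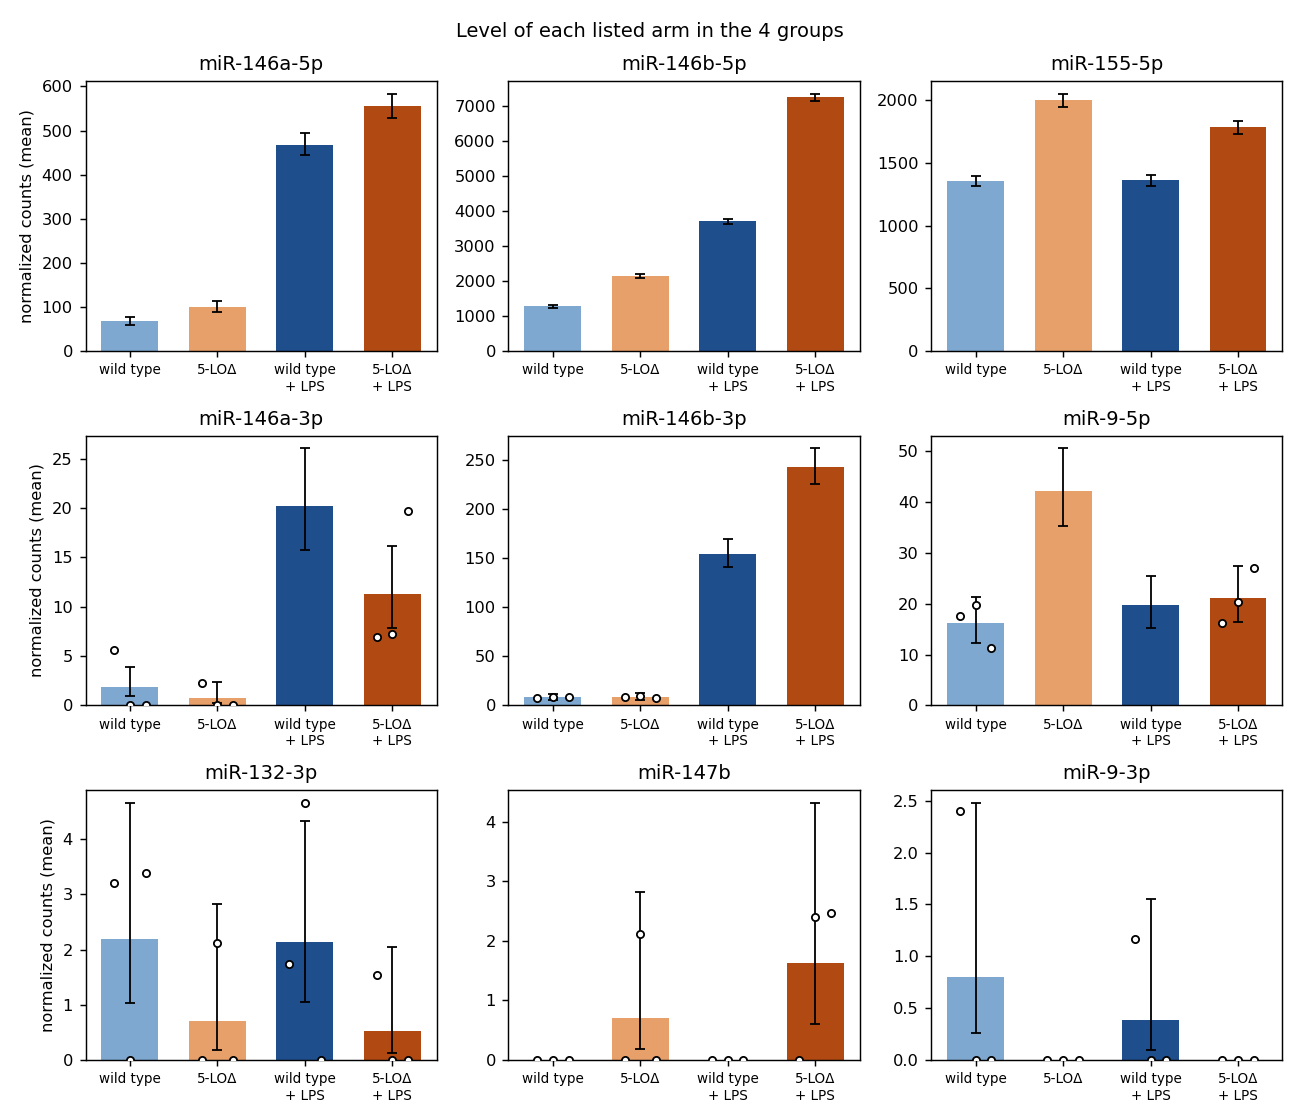
Mean normalized counts of the 9 arms (vertical axis, linear, one scale per panel) in wild-type and 5-LOΔ cells without and with LPS. Bars are the deposited means, error bars are 95% counting intervals, and circles are the 3 libraries where their reads were recovered in 1 way. The arms of miR-146a and miR-146b were higher in both LPS groups, while miR-155-5p had 1358 to 1998 in all 4.

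LPS effects were computed as log2 ratios of the LPS mean to the mean without LPS and centred on the median mature miRNA, since the tables had been normalized separately. The median ratio before centring was −0.27 in wild-type and −0.28 in 5-LOΔ cells, and any other difference between the tables cannot be told apart from LPS. Of the 9 arms, 5 passed the filter on low values (an average of at least 10 over the groups): miR-146a-5p, miR-146b-5p, miR-146b-3p, miR-155-5p and miR-9-5p. miR-146b-3p passed through the LPS groups alone, so its LPS effect had to be high, and its value is given without being counted among the members called with LPS. A change of at least 1.5-fold was counted as past the threshold.

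In wild-type cells 2 of the other 4 arms, miR-146a-5p and miR-146b-5p, were higher with LPS, against 9.91% of the 111 mature miRNAs tested, and none was lower, against 0.901%. Both were also past 2-fold, against 4.50%. miR-146b-3p was 23.3-fold higher, an effect of 4.54 on the log2 scale (counting interval 3.95 to 5.13, with the spread 3.75 to 5.33). By the reads of its precursor entry that the 5p arm does not hold, the effect was 3.36, below both intervals. miR-146a-5p was 8.44-fold higher, or 3.08 (2.87 to 3.29, with the spread 2.51 to 3.64). miR-146b-5p was 3.52-fold higher, or 1.82 (1.76 to 1.87, with the spread 1.29 to 2.34). miR-146a-5p and miR-146b-5p had ranks 2 and 3 of 111, behind miR-146b-3p, whose place the filter favoured, and the wide intervals of miR-146a-5p and miR-146b-5p did not overlap.

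In 5-LOΔ cells miR-146a-5p and miR-146b-5p, again 2 of 4, were higher with LPS, against 9.91% of all, and both were past 2-fold, against 5.41%. They again held ranks 2 and 3, behind miR-146b-3p. miR-146b-3p was 35.8-fold higher, or 5.16 on the log2 scale (with the spread 4.21 to 6.12). By the reads of its precursor entry that the 5p arm does not hold, this was 3.28. The effect on miR-146a-5p was 6.72-fold or 2.75 (with the spread 1.98 to 3.52), and that on miR-146b-5p was 4.12-fold or 2.04 (with the spread 1.29 to 2.80). Here the wide intervals of miR-146a-5p and miR-146b-5p overlapped. Without centring, miR-146a-5p was higher by 7.0-fold in wild-type and by 5.54-fold in 5-LOΔ cells, and miR-146b-5p was 2.92-fold and 3.40-fold higher.

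miR-155-5p did not follow them. Its LPS effect was 0.27 on the log2 scale, or 1.21-fold, in wild-type cells (counting interval 0.21 to 0.33, with the spread −0.26 to 0.80) and 0.11 in 5-LOΔ cells (0.060 to 0.17, with the spread −0.64 to 0.87). Its ranks were 21 and 37 of 111. Without centring the deposited means differed 1.00-fold in wild-type cells, and in 5-LOΔ cells the effect was −0.16. Both wide intervals reach beyond 1.5-fold, so a moderate change in either genotype was not detectable with these data.

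**Figure D2:**
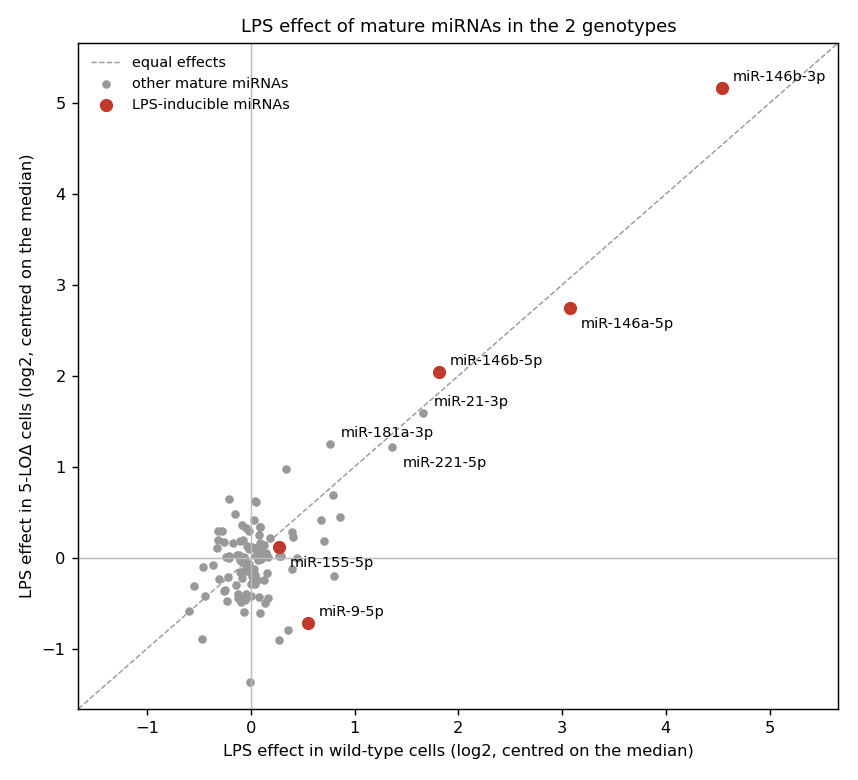
LPS effect (log2 ratio of means with over without LPS, centred on the median) in wild-type cells on the horizontal and in 5-LOΔ cells on the vertical axis for 111 mature miRNAs, with the 5 listed arms past the filter in red. The 2 genotypes share no library. The 3 miR-146 arms lie at the upper right, miR-155-5p lies at 0.27 and 0.11, and miR-9-5p lies at 0.55 and −0.72.

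The ratio of members within a group does not depend on any scaling between groups or tables. Its absolute size carries the ligation bias of each miRNA, so only its change is compared, and in the wide intervals the spreads of both miRNAs are taken as independent. Without LPS there were 19.0 counts of miR-146b-5p for each count of miR-146a-5p in the wild type and 21.3 in 5-LOΔ cells, and with LPS the ratios were 7.91 and 13.0. The ratio was thus lower with LPS by 2.40-fold in wild-type cells (log2 −1.26, counting interval −1.48 to −1.04, with the spread −2.04 to −0.49). In 5-LOΔ cells it was lower by 1.63-fold (log2 −0.71, with the spread −1.79 to 0.37), which includes no change. Between the genotypes the ratio differed by 0.72 on the log2 scale with LPS (with the spread −0.13 to 1.58) and by 0.17 without LPS (with the spread −0.85 to 1.18), and both wide intervals include no difference. The ratio of miR-155-5p to miR-146a-5p was 20.3 and 19.95 in the genotypes without LPS and 2.91 and 3.21 with LPS, changes of −2.81 (with the spread −3.58 to −2.03) and −2.63 (with the spread −3.71 to −1.55). The ratio of miR-155-5p to miR-146b-5p was 1.07 and 0.938 without LPS and 0.367 and 0.246 with LPS, changes of −1.54 (with the spread −2.29 to −0.80) and −1.93 (with the spread −2.99 to −0.86).

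As listed, the arms of the miR-146b hairpin moved by different amounts. The ratio of miR-146b-5p to miR-146b-3p was 159 in wild-type cells (counting interval 107 to 236) and 259 in 5-LOΔ cells (173 to 388), and with LPS it was 24.0 (21.9 to 26.3) and 29.8 (27.6 to 32.2). The ratio was thus 6.61-fold lower with LPS in wild-type cells (log2 −2.72, counting interval −3.31 to −2.14, with the spread −3.67 to −1.78) and 8.69-fold lower in 5-LOΔ cells (log2 −3.12, −3.71 to −2.53, with the spread −4.34 to −1.90). The low end rests on few reads, 9, 9 and 7 in the wild-type libraries and 11, 9 and 5 in the 5-LOΔ libraries of largest, middle and smallest size factor. These came to 7.20, 8.86 and 7.92 and to 8.23, 9.52 and 6.90 normalized counts, so the libraries of both genotypes overlapped and each was low. The precursor entry mir-146b, which should hold the reads of both arms, stood below that sum, with differences of −6.33 in wild-type cells, −4.86 in 5-LOΔ cells, −140.1 in wild-type cells with LPS and −216 in 5-LOΔ cells with LPS. Most of the reads listed for miR-146b-3p with LPS were therefore not listed for its hairpin, and the part of the copy on chromosome 9 in this was not tested. The reads of the precursor entry beyond the 5p arm came to 1.67 and 3.36 normalized counts in wild-type and 5-LOΔ cells, and to 14.2 and 26.9 with LPS. Used in place of the listed 3p arm, they gave LPS effects of 3.36 in wild-type and 3.28 in 5-LOΔ cells.

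Other hairpins give a scale for this difference between arms. In wild-type cells the minor arm was at least 1.5-fold higher than the major arm in its LPS effect for 5 of the 20 other hairpins with both arms past the filter (25.0%), and lower for 0. The median difference was 0.039 on the log2 scale and the range was −0.54 to 1.22. In 5-LOΔ cells the minor arm was higher for 3 of 20 (15.0%) and lower for 1 (5.00%), with a median of −0.14 and a range from −1.28 to 1.59. With the listed 3p arm the difference for miR-146b was 2.72 and 3.12. This hairpin entered through the LPS groups in which its 3p arm is high, so its place among the others is a description and no support. The highest of the others were miR-21 (1.22 and 1.59), miR-221 (1.07 and 1.195) and miR-181a (0.79 and 0.95). With the reads of the precursor entry in its place, the difference for miR-146b was 1.55 in wild-type cells (counting interval 0.23 to 2.87) and 1.24 in 5-LOΔ cells (0.26 to 2.21), and both intervals reach below the values of miR-21. These intervals leave out the spread between libraries, so a difference between the arms is uncertain by these reads.

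miR-146a-3p lay below the filter, and its LPS effects were 3.71 in wild-type cells (counting interval 2.58 to 4.84) and 4.19 in 5-LOΔ cells (2.48 to 5.904). With a pseudocount of 10 these were 1.57 and 1.22. Its reads without LPS were 7, 0 and 0 in wild-type and 3, 0 and 0 in 5-LOΔ libraries, each time in the library with the largest factor. With LPS the reads in 5-LOΔ libraries were 9, 6 and 16, or 6.92, 7.19 and 19.7 normalized counts, so 1 library held most of them. The ratio of miR-146a-5p to miR-146a-3p changed with LPS by −0.63 in wild-type (−1.78 to 0.52) and −1.44 in 5-LOΔ cells (−3.16 to 0.28), so a change was not detectable at this depth.

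**Figure D3:**
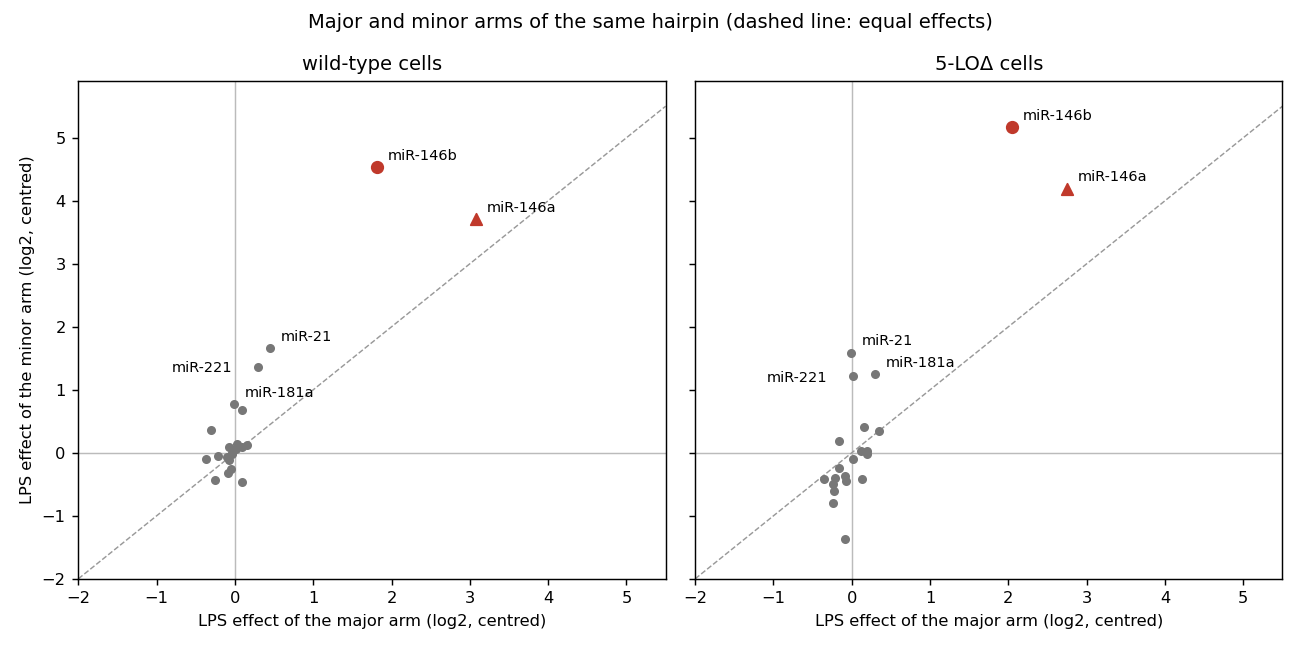
LPS effect of the minor arm (vertical) against that of the major arm (horizontal), both as centred log2 ratios, in wild-type cells (left) and 5-LOΔ cells (right). Grey points are the other 20 hairpins with both arms past the filter, the red circle is miR-146b and the red triangle is miR-146a, whose 3p arm lay below the filter. As listed, the arms of miR-146b differed by 2.72 and 3.12, those of miR-21 by 1.22 and 1.59. miR-146b entered through the LPS groups in which its 3p arm is high. With the precursor entry less the 5p arm in place of the 3p arm, it differed by 1.55 and 1.24 (not drawn).

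Knockout effects are log2 ratios of the 5-LOΔ mean to the wild-type mean within a table. As the authors scaled them, all mature miRNAs together had a median of 0.17 without and 0.13 with LPS, and 25 of 29 calls without LPS and 20 of 25 with LPS were higher. This balance depended on the scaling, since 13 of 22 and 12 of 24 calls were higher when centred, and 9 of 26 and 7 of 29 when scaled to mature miRNAs without the miR-3607 entries. Without LPS 2 of the 4 arms other than miR-146b-3p were higher in 5-LOΔ cells, against 22.5% of all tested, and 0 were lower, against 3.60%. At 2-fold this left 1 of 4, miR-9-5p, against 6.31%, and 0 lower, against 2.70%. With LPS 1 of 4, miR-146b-5p, was higher, against 18.0%, and 0 were lower, against 4.50%, with miR-146b-3p again left out of the count.

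miR-146b-5p was higher in 5-LOΔ cells both times, by 1.68-fold without LPS (0.75 on the log2 scale, counting interval 0.69 to 0.81, with the spread 0.052 to 1.45) and by 1.955-fold with LPS (0.97, 0.93 to 1.00, with the spread 0.37 to 1.57). It ranked 14 and 6 of 111. Its value without LPS fell under the threshold, to 0.57, when centred on the median, and to 0.42 when scaled to mature miRNAs without the miR-3607 entries. miR-146b-3p had an effect of 0.039 without LPS (counting interval −0.78 to 0.85) and was 1.57-fold higher with LPS (0.65, with the spread 0.030 to 1.28), which fell to 0.52 when centred. From the precursor entry less the 5p arm these effects were 1.009 and 0.92.

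miR-146a-5p was 0.58 higher without LPS (0.32 to 0.84, with the spread −0.16 to 1.32), just under the threshold. With LPS its effect was 0.25, or −0.082 when scaled to mature miRNAs without the miR-3607 entries. miR-155-5p was also just under it, at 0.56 without LPS (0.50 to 0.62, with the spread −0.14 to 1.25), and at 0.39 with LPS. For both, the wide interval without LPS includes no difference. The 5 members thus ran from 0.039 to 1.38 without LPS and from 0.11 to 0.97 with LPS. With LPS miR-146a-3p was lower in 5-LOΔ cells (−0.85, counting interval −1.48 to −0.21, with the spread −1.72 to 0.025), whereas its 5p arm was not. The ratio of miR-146a-5p to miR-146a-3p differed by 1.09 between the genotypes with LPS (with the spread 0.029 to 2.15). The effect on miR-146a-3p was −0.59, −0.61 and −1.52 without the 5-LOΔ library of largest, middle and smallest size factor, and −0.51, inside the threshold, with a pseudocount of 10.

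**Figure D4:**
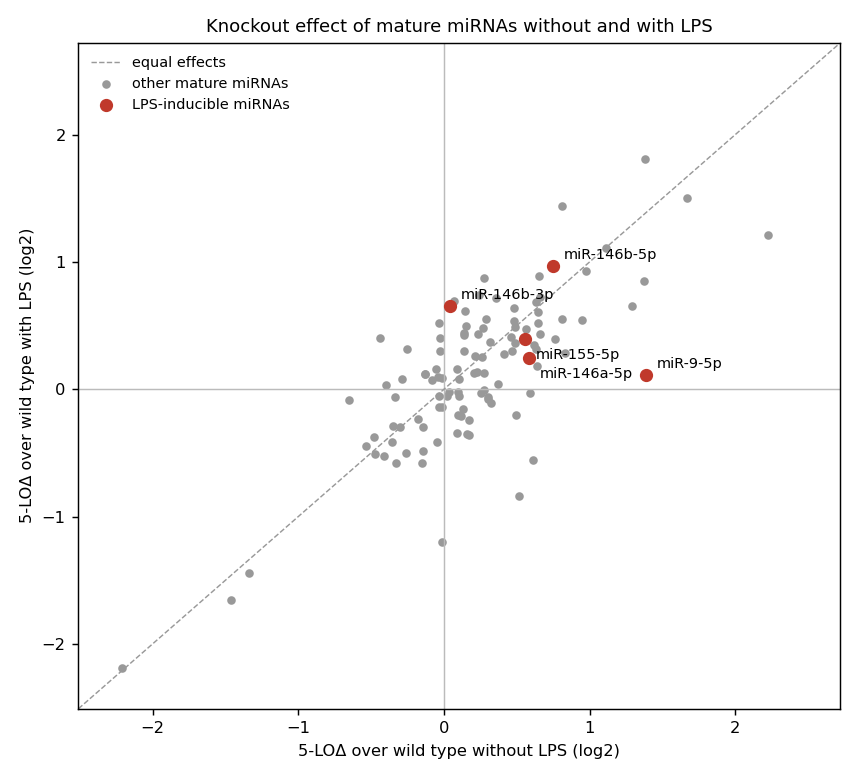
Knockout effect (log2 ratio of the 5-LOΔ to the wild-type mean) without LPS on the horizontal and with LPS on the vertical axis for 111 mature miRNAs, with the 5 listed arms past the filter in red. Each axis uses its own 6 libraries. miR-9-5p lies at 1.38 and 0.11, away from the line of equal effects, and miR-146b-5p at 0.75 and 0.97.

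miR-9-5p, a neuronal miRNA that is also made in LPS-treated monocytes and represses NFKB1, was highest in 5-LOΔ cells without LPS. Its mean was 16.2 normalized counts in wild-type cells (counting interval 12.3 to 21.3), 42.3 in 5-LOΔ cells (35.4 to 50.6), 19.7 in wild-type cells with LPS (15.2 to 25.4) and 21.2 in 5-LOΔ cells with LPS (16.4 to 27.4). One group stood out, the 5-LOΔ cells without LPS, while the other 3 overlapped in their intervals. The wild-type libraries held 22, 20 and 10 reads and the 5-LOΔ libraries with LPS 21, 17 and 22, or 16.1, 20.4 and 27.1 normalized counts. In the high group 5 combinations of reads give the deposited mean, with single libraries anywhere from 1.06 to 104.8, so whether 1 library set the mean is unknown.

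The knockout effect on miR-9-5p was 2.61-fold without LPS (1.38 on the log2 scale, with the spread 0.54 to 2.22), rank 3 of 111. With LPS it was 0.11 (counting interval −0.42 to 0.63), or −0.024 when centred. The difference between both effects was −1.28 (−1.98 to −0.57, with the spread −2.43 to −0.12), and only let-7d-3p was lower among 111. Its LPS effect was 0.55 in wild-type cells (0.0067 to 1.09, with the spread −0.21 to 1.30), just under the threshold, and −0.72 in 5-LOΔ cells (−1.17 to −0.26, with the spread −1.60 to 0.16). It was the 1 member of the same 4 that was at least 1.5-fold lower with LPS there, against 7.21% of all. Without the 5-LOΔ LPS library of largest size factor this value was −0.56, inside the threshold, and without the wild-type library of largest or middle factor the wild-type value was 0.61 or 0.71, past it. The precursor entries also put the wild-type value past it, at 0.62, and a pseudocount of 10 put the 5-LOΔ value inside it, at −0.51.

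For the difference between the knockout effects with and without LPS, 0 of the 4 members without miR-146b-3p were past 1.5-fold upward, against 4.50% of all, and 1 was past it downward, miR-9-5p, against 7.21%. miR-146b-3p had a value of 0.61 (−0.22 to 1.45, with the spread −0.63 to 1.85). It was 0.53 without the wild-type library of middle size factor and 0.50 without the 5-LOΔ library of smallest size factor, both inside the threshold, and −0.089 from the precursor entry less the 5p arm. The values of miR-146a-5p (−0.34), miR-146b-5p (0.22) and miR-155-5p (−0.17) stayed within the threshold, with a median of −0.061 over all.

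The remaining arms were at the edge of detection. miR-132-3p, which is transcribed with miR-212 and is known as a target of CREB, had 4, 0 and 3 reads in wild-type libraries, 0, 2 and 0 in 5-LOΔ libraries, 3, 5 and 0 in wild-type libraries with LPS and 2, 0 and 0 in 5-LOΔ libraries with LPS. Its means were 2.20, 0.705, 2.14 and 0.513 normalized counts. The LPS effect in wild-type cells was 0.23 with a counting interval of −1.26 to 1.72, so an induction was not detectable. It ran from −1.06 to 0.81 when single libraries were left out. Its knockout effects of −1.64 (−3.92 to 0.63) and −2.06 (−4.30 to 0.19) include no difference. The latter was −0.77 without the wild-type LPS library of middle size factor, and with a pseudocount of 10 the effects were −0.19 and −0.21.

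miR-147b was listed at 0 in both wild-type groups, with 0, 2 and 0 reads in 5-LOΔ libraries and 0, 2 and 2 in 5-LOΔ libraries with LPS. miR-9-3p had 3, 0 and 0 reads in wild-type and 2, 0 and 0 in wild-type libraries with LPS, and was listed at 0 in both 5-LOΔ groups. With so few reads neither presence nor absence in a genotype can be read from them. The precursor entries of miR-9 were nearly equal at the 3 loci, for example 13.6 each in 5-LOΔ cells. There they summed to 40.8, against 42.3 for the listed arms. The mature sequences match all 3 loci, so these entries do not measure each gene on its own.

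Other miRNAs have been tied to Toll-like receptor 4 signalling. Of a list of 12, 11 were listed and 10 passed the filter. The list was chosen with earlier results of these data known, so its shares beside those of all miRNAs are a description and no support. In wild-type cells 3 of 10 were at least 1.5-fold higher with LPS, against 9.91% of all 111: miR-21-3p (1.66 on the log2 scale), miR-222-3p (0.86) and miR-125a-5p (0.79). In 5-LOΔ cells 3 of 10 were higher as well, again against 9.91%: miR-21-3p (1.59), miR-125a-5p (0.69) and miR-27b-3p (0.62). None of the 10 was lower by that much in either genotype, against 0.901% and 7.21% of all, including miR-223-3p, let-7i-5p and miR-98-5p, which had been entered as falling. The medians were 0.24 in wild-type and 0.18 in 5-LOΔ cells, against 0 over all 111 by construction. The 7 entered as rising had medians of 0.44 and 0.45, and the 3 entered as falling had 0.059 and −0.080. The knockout effect without LPS was past 1.5-fold upward for 2 of 10, miR-21-5p (0.64) and let-7i-5p (0.63), against 22.5% of all, and downward for 2 of 10, miR-125a-5p (−1.34) and miR-99b-5p (−2.21), against 3.60%. With LPS 0 were higher, against 18.0%, and the same 2 were lower, miR-125a-5p (−1.45) and miR-99b-5p (−2.19), against 4.50%.

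Among miRNAs outside these families, those whose pattern over the 4 groups was nearest to that of miR-146a-5p, by Euclidean distance between log2 means after removing the group median and the own mean, were miR-21-3p (1.32), miR-221-5p (1.67), miR-181a-3p (1.95), miR-222-3p (2.31) and miR-1248 (2.31). Of the members, miR-146b-5p lay at 1.11 and miR-146b-3p at 2.00. miR-21-3p had 62.0 and 71.7 normalized counts without LPS and 162 and 178 with LPS, and miR-221-5p had 10.5 and 11.3 against 22.4 and 21.6. The first 3 are arms of hairpins whose other arm is the major one. Nearest to miR-155-5p were let-7f-5p (0.157), miR-21-5p (0.161), miR-22-3p (0.182), miR-3651 (0.187) and miR-92a-3p (0.203), whose LPS effects ran from 0.053 to 0.44 in wild-type cells. A pattern over 4 groups is a description of 4 points.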

How the data were processed

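The authors trimmed adapters of the Lexogen small RNA kit from size-selected, single-end NextSeq500 libraries and annotated reads against hg19 with omiRas, for which the sources used here give neither version, aligner nor scaling. They deposited a table without and a table with LPS, normalized separately, whose signal columns hold the mean normalized count of each genotype. The deposited log2 fold changes, p-values and FDR of the authors' own comparison were not used. Groups were taken from the sample labels. Members and lists were chosen with earlier results of these data known. The texts name all listed arms of the families, members of the Toll-like receptor 4 list past 1.5-fold and the 5 nearest miRNAs to miR-146a-5p and miR-155-5p. The examples of other hairpins and of let-7d-3p were chosen after their values were seen.

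The planned fits were ratios of means, since the tables have no library values. Whole reads were recovered from means of at most 10, and up to 30 where 1 combination of reads gave the printed 6 digits. All low means came out as whole reads in 1 way, except in 5-LOΔ cells (99.1%). For means from 10 to 20 these were 98.1% and 98.0% without LPS, 0% in wild-type and 100% in 5-LOΔ cells with LPS. The recovery and the 95% intervals were tested on simulated data. There the wide interval was given the simulated spread itself, so that test does not check intervals built on an estimated spread. Intervals treat reads as independent molecules, so the narrow ones cover counting error only. No pseudocount was added. Miscounting of near-identical miRNAs is possible, since the mismatches allowed are not given. The alternatives were filters, pseudocounts, scalings, precursor entries and, where reads were recovered, leaving out each library. Positions are from GRCh37 with GENCODE lifted to it. Scripts ran under Python 3.11.15 with scipy 1.17.1, numpy 2.4.6, matplotlib 3.10.9 and pandas 2.3.3.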

Additional observations from a re-analysis of the deposited data

Results flagged for a closer look

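The precursor entries of mir-147b and mir-146a held small amounts of signal beyond their listed mature arms, of which wild-type cells without LPS had none for these hairpins. For mir-147b the precursor exceeded its arm by 0.7055 normalized counts in 5-LOΔ cells, 0.3877 in wild-type cells with LPS and 3.79 in 5-LOΔ cells with LPS. For mir-146a it exceeded both arms by 0.4996 in 5-LOΔ cells. In both LPS groups the mir-146a entry stood below the sum of its arms, with differences of −3.80 in wild-type and −4.26 in 5-LOΔ cells. mir-155 exceeded its listed arm by 1.33 in wild-type cells and 1.0 in wild-type cells with LPS.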

How the results depend on the processing

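Of 423 values of single members under an alternative, 391 kept their direction and 381 their side of 1.5-fold. The LPS effects of miR-146a-5p (2.81 to 3.09 in wild-type, 2.47 to 2.75 in 5-LOΔ cells) and miR-146b-5p (1.55 to 1.82 and 1.76 to 2.05) stayed past it under every alternative run. No library could be left out for either. Those of miR-146b-3p ran from 3.36 to 4.62 and from 3.28 to 5.28, but its way through the filter favoured high values, so this is no support. The difference between knockout effects of miR-9-5p ran from −1.49 to −0.92 under the alternatives run. These left out no 5-LOΔ library without LPS, the group that stood out, so whether the difference rests on a single library was not tested. The knockout effect of miR-146b-5p ran from 0.42 to 0.75 without LPS, past the threshold in 6 of 9 alternatives, and that of miR-146b-3p with LPS from 0.33 to 0.92, past it in 5 of 9. The LPS effect of miR-155-5p in 5-LOΔ cells ran from −0.16 to 0.11, and the knockout effect of miR-146a-5p with LPS from −0.082 to 0.25. The LPS effect of miR-9-3p in wild-type cells turned from −0.78 to 0.1684 with a pseudocount of 10, and the difference between knockout effects of miR-146b-3p from 0.61 to −0.0893 when the precursor entry less the 5p arm replaced the listed arm, an alternative chosen after seeing the data.

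Counts past 1.5-fold moved as follows. The member counts include miR-146b-3p, which passed the filter through the LPS groups alone (without it, 2 of 4 were higher with LPS in each genotype and 1 lower in 5-LOΔ cells). With no filter, 89 miRNAs and 4 members passed in the knockout effect without LPS (29 and 2 with the filter), 75 and 4 with LPS (25 and 2), 62 and 5 in the LPS effect in wild-type cells (12 and 3), 63 and 6 in 5-LOΔ cells (19 and 4) and 58 in the difference between knockout effects (13). With an average of at least 50 these were 19 miRNAs and 1 member, 15, 6, 9 (with 3 members) and 6, with 1 member in the difference, since fewer miRNAs were tested. With a pseudocount of 10 the LPS effects gave 7 and 8, the latter with 3 members, and the difference 8. Centring, the scaling to mature miRNAs without miR-3607 and that to all noncoding RNAs each left 1 member in both knockout effects. Scaling to the sum of mature miRNAs left 1 member in the knockout effect with LPS and 1 in the difference, and gave 30 in the LPS effect in 5-LOΔ cells. Without centring that effect gave 31, of which 7 were higher, against 19 with 11 higher, and in wild-type cells 14 with 6 higher, against 12 with 11 higher. The cause was not tested beyond these constructions.

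No paired analysis was possible because the deposited columns are means that carry no replicate number. The alternative with precursor entries was not run for the minor arms miR-146a-3p and miR-9-3p, and leaving out a library was not run where reads were not recovered in 1 way. For miR-146a-3p, the wild-type mean is 0 without the library of largest factor, so no value came of it. Depth limits miR-132-3p, miR-147b, miR-9-3p and miR-146a-3p without LPS, with at most 7 reads per library.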
